A study of Mus musculus with 6 samples.

Results

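The genes described here carry out major histocompatibility complex (MHC) class I antigen presentation, together with Cd74 and its transcriptional activator. They were taken by name: the heavy chains H2-K1 and H2-D1, the light chain B2m, the peptide transporter genes Tap1 and Tap2, the loading factor Tapbp, the peptide-trimming enzyme Erap1, the activators Nlrc5 and Ciita, and Cd74. All 10 were found among the 55335 genes of the deposited expression table, and 9 passed the filter on low values, Ciita being the exception. RNA was sequenced from RAW264.7 cells, a macrophage-like line from a tumour of a BALB/c mouse, labelled wild type. The LPS group (3 libraries) received bacterial lipopolysaccharide at 200 ng/ml for 8 h. The LPS plus ultrasound group (3 libraries) received the same lipopolysaccharide and, within that period, 10 min of ultrasound at 50 mW/cm2, given at 1 MHz in pulses of 200 µs at 1 kHz with a 20% duty cycle. Every library was therefore from lipopolysaccharide-treated cells, and the comparison asks what ultrasound added. Whether replicate libraries were grown as separate cultures is not stated in the labels, and p-values therefore reflect only library-to-library spread, possibly technical.

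Class I molecules show fragments of the proteins made inside a cell to cytotoxic T cells. Proteasomes cut those proteins, the TAP transporter moves the peptides into the endoplasmic reticulum, tapasin and its partners load them, and ERAP1 trims them to fit. NLRC5 drives transcription of the class I genes through a conserved promoter module of X and Y boxes, and CIITA does the same for class II genes. CD74, the invariant chain, escorts class II molecules and blocks their groove until cathepsins cut it away, and at the cell surface it also binds the cytokine MIF. In macrophages, interferons and NF-kB raise the class I genes.

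Promoter sequences are shown for B2m, H2-K1 and H2-D1, in which the class I module was found. RefSeq promoter windows (GRCm38.p6) were matched for 6 of the 10 genes. The upstream 250 bases of each window were searched on both strands for the X2 core TGACG, the Y box ATTGG, a long interferon element (GAAA and GAAA with 2 bases between), the short one GAANNGAAA, and the NF-kB site GGGGATTCC. B2m, H2-K1 and H2-D1 each held an X2 core followed on the sense strand by a Y box, with exactly 20 bases between them. The windows of Tap1, Tapbp and Erap1 held no such pair. Annotated exons cover all 250 bases searched for Tap1, Tapbp, Erap1 and H2-D1. For Tap1 these include exons of Psmb9, and for Tapbp exons of Zbtb22 and Gm19412. A missing pair therefore describes these windows only. The 30-base stretches lie at chr2:122147609-122147638 on the plus strand, chr17:34000359-34000388 on the minus strand and chr17:35262993-35263022 on the plus strand, in that order, with capitals marking the X2 core and the Y box.
B2m: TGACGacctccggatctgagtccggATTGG
H2-K1: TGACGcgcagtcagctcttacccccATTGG
H2-D1: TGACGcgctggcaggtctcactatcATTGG
Both heavy chain windows also held the NF-kB site 12 bases before an interferon element, at chr17:34000429-34000458 (minus strand) for H2-K1 and chr17:35262923-35262952 (plus strand) for H2-D1. Here capitals mark the NF-kB site and the interferon element, which reads GAANNGAAA on the opposite strand.
H2-K1: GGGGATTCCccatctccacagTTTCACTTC
H2-D1: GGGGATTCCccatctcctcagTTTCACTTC
The upstream sequence of H2-K1, chr17:34000348-34000597, places both pairs in their context.
H2-K1: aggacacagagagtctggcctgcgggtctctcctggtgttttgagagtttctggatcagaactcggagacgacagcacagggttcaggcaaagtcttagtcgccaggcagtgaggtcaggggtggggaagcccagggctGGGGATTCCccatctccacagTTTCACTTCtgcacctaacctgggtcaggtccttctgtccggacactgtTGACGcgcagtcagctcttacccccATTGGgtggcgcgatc
That of B2m, chr2:122147437-122147685 on the plus strand, carries the longer interferon element GAAACTGAAA and no exact match to GGGGATTCC. Other forms of NF-kB site were not searched for, so B2m may hold one.
B2m: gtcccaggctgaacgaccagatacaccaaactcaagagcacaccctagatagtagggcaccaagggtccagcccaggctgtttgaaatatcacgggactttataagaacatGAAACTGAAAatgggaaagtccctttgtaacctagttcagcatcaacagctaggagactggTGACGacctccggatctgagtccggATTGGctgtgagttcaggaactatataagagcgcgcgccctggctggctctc

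The capitals are alike by the choice of the stretches, so identity was counted in the lower-case bases between them. The heavy chains shared 11 of 12 such bases in the NF-kB stretch and 13 of 20 in the X2 to Y stretch. B2m shared 3 of 20 with H2-K1 and 2 of 20 with H2-D1. Among 32851 promoter windows, TGACG was found in 17.8%, ATTGG in 33.8%, the long interferon element in 2.98%, GAANNGAAA in 6.31% and GGGGATTCC in 0.213%. An X2 core and Y box at 15 to 25 bases apart on the sense strand were found in 0.207%, and at exactly 20 bases in 0.0548%. These matches describe letters in a window and are not evidence of binding.

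Cell identity and library quality were checked first. Of 11 macrophage markers, 9 averaged at least 1 FPKM (fragments scaled to gene length and to library size), led by Fcer1g at 899 FPKM. Summed macrophage marker levels ranged from 2441 to 2664 FPKM with LPS and from 2483 to 2713 FPKM with ultrasound. The sum is carried by its most abundant genes, and single markers differed more than the sum. Picked after their values were seen, Adgre1, Itgam and Fcgr1 had log2 differences of -0.62, -0.64 and -0.26 and Csf1r had 0.52, none past the adjusted threshold, and leaving out LPS library 2 gave -0.41 for Adgre1 and 0.22 for Csf1r. The part of these markers in the results below was not tested. Of 8 dendritic cell markers 2 reached a mean of 1 FPKM, Itgax at 9.80 FPKM and Ccr7, and the list summed to 9.35 to 11.7 FPKM with LPS and 10.3 to 14.2 FPKM with ultrasound. None of the B cell, T cell, skeletal muscle or fibroblast markers reached that mean. LPS library 2 stood apart, at 28.8 on the first principal component (41.9% of variance) while the other 5 libraries lay between -17.7 and 2.03. Values without it are given beside many, but not all, of those it moved. Across the 11270 genes tested with limma on log2(FPKM + 1), 2 passed a Benjamini-Hochberg adjusted p of 0.05, or 0.0177%. With the libraries blocked by number 13 passed, or 0.115%.

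None of the 9 tested genes passed that threshold, with or without the block. The class I genes other than Erap1 had lower mean values with ultrasound, and Cd74 and Erap1 had higher ones. The median difference of the 9 genes was -0.07 on the log2(FPKM + 1) scale, beside -0.02 over all genes tested, and 7 of 9 were lower, beside 53.9% of all genes. At an unadjusted p under 0.05 only Tap1 was counted by limma, where 15.3% of all genes were. With the block the count was 4, where 29.7% of all genes were counted: Tap1, H2-D1 and Nlrc5 on the lower side (17.1% of all genes) and Cd74 on the higher (12.6%). The groups did not overlap for 1 of the 9 genes, Tap1, against 23.2% of all genes. In the unblocked fit both shares were below those of all genes. With libraries weighted by their quality 0 of the 9 passed the adjusted threshold, where 1.98% of all genes did.

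**Figure D1:**
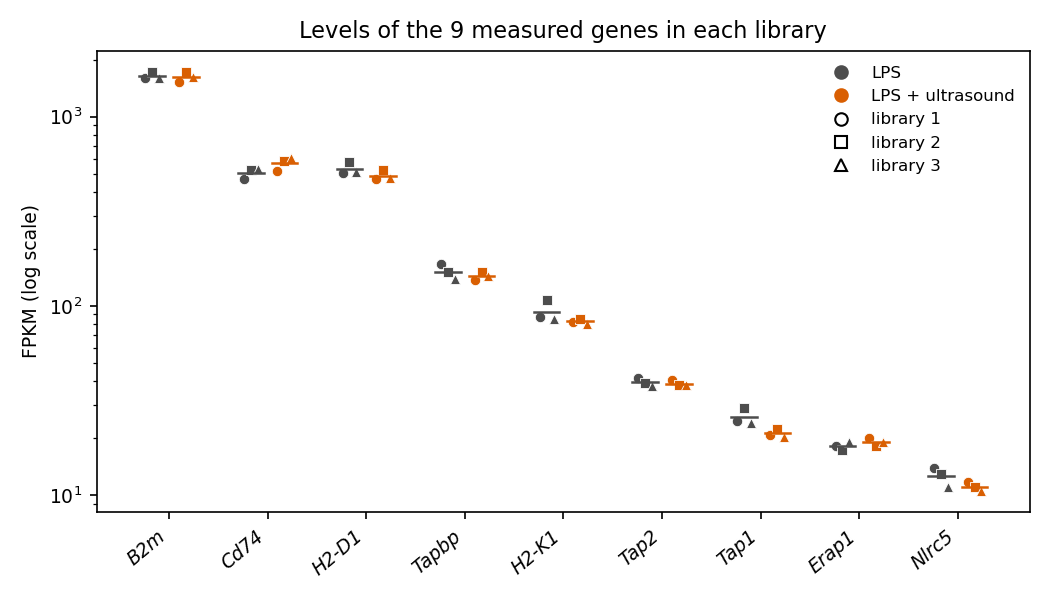
FPKM of the 9 tested genes in each library, on a log axis, with genes ordered by mean level, point shapes for library numbers and lines for group means. Tap1 is the gene whose groups do not overlap, with LPS libraries from 24.1 to 28.7 FPKM and ultrasound libraries from 20.3 to 22.3 FPKM.

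H2-K1 and H2-D1 encode the classical heavy chains that hold the peptide. H2-K1 (ENSMUSG00000061232) was at 86.8, 107.8 and 85.3 FPKM in LPS libraries 1, 2 and 3, and at 82.4, 85.4 and 80.3 FPKM in the ultrasound libraries. LPS library 2 was well above the rest, and the groups overlapped by a narrow margin. The means were 93.3 ± 12.6 and 82.7 ± 2.56 FPKM (SD, n = 3 each), a log2 difference of -0.16 ± 0.10 (SE; 95% interval -0.40 to 0.07; limma with Benjamini-Hochberg adjustment, adjusted p = 0.46). Leaving out LPS library 2 gave -0.06. H2-D1 (ENSMUSG00000073411) was more abundant, at 505, 579 and 508 FPKM with LPS and 467, 522 and 471 FPKM with ultrasound. Library 2 was the highest of each group, and each ultrasound library lay below the LPS library of its number, by -9.69% to -7.29%. The log2 difference was -0.12 ± 0.09 (SE; interval -0.32 to 0.08; limma, Benjamini-Hochberg adjusted p = 0.51). Leaving out LPS library 2 gave -0.06. RAW264.7 carries the BALB/c form of these highly variable genes, and the submitters' processing notes name only a rat build, at odds with the mouse identifiers. How well reads matched these alleles was not tested.

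B2m encodes the light chain shared by all class I molecules. It was among the most abundant transcripts, ranked 8 of the 11270 genes tested by mean FPKM. Its values were 1609, 1722 and 1601 FPKM with LPS and 1517, 1727 and 1627 FPKM with ultrasound. The groups overlapped throughout, and 1 of 3 ultrasound libraries lay below the LPS library of its number. The log2 difference was -0.02 ± 0.08 (SE; interval -0.20 to 0.17; limma, Benjamini-Hochberg adjusted p = 0.92). Under quantile normalization it was -0.32, and without LPS library 2 it was 0.01.

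Other heavy chain genes include H2-Q, H2-T and H2-M genes, several of which present specialised ligands. Of 20 listed, 14 were tested, all 14 were lower with ultrasound and none passed the adjusted threshold. Their median was -0.22, beside -0.02 over all genes, and 4 had groups that did not overlap on the lower side, where 13.4% of all genes did. The same list followed the library that stood apart: within the LPS group 14 of 14 peaked in library 2, and within the ultrasound group 13 of 14 did. Of all 11270 genes tested, 4318 and 5111 did so. Without LPS library 2, 11 were lower and the median was -0.09. Without both libraries numbered 2, 14 were lower and the median was -0.17.

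H2-K2, annotated as a transcribed pseudogene, was at 18.2, 22.1 and 19.2 FPKM with LPS and 10.4, 16.4 and 9.13 FPKM with ultrasound. Every ultrasound library lay below every LPS library, with a log2 difference of -0.72 ± 0.20 (SE; interval -1.18 to -0.26; limma, Benjamini-Hochberg adjusted p = 0.22). With libraries weighted by their quality its adjusted p was 0.0355 (limma), in a fit where 1.98% of all genes passed 0.05. H2-Q6 was at 45.0, 63.3 and 41.3 FPKM with LPS and 35.3, 39.6 and 31.2 FPKM with ultrasound, also without overlap. Its log2 difference was -0.47 ± 0.17 (SE; limma, Benjamini-Hochberg adjusted p = 0.27). Leaving out LPS library 2 gave -0.28. It shares 10.8% of its 100-base stretches with other genes, against 0.957% for H2-K1 and 3.59% for H2-D1, so reads could be split between copies. H2-T24 had a log2 difference of -0.64, and -0.38 without LPS library 2. H2-M3, which presents formylated bacterial peptides, had -0.30, H2-T22 had -0.19, and H2-Q4, the most abundant of the list, had -0.02. Leaving out that library gave -0.17 for H2-M3, -0.05 for H2-T22 and 0.09 for H2-Q4.

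Because copies can share reads, the heavy chain genes were also summed. The 17 H2 genes together gave 820, 985 and 807 FPKM with LPS and 745, 842 and 729 FPKM with ultrasound. The groups overlapped, and library 2 was the highest in each. The means were 871 ± 99.2 and 772 ± 61.0 FPKM (SD, n = 3 each), a difference of -98.8 FPKM (exact two-sided permutation p = 0.3, where 3 against 3 libraries cannot go below 0.1). Without LPS library 2 the difference was -41.6 FPKM. The ratio of B2m to this sum, computed after the values were seen, was 1.96, 1.75 and 1.99 with LPS and 2.04, 2.05 and 2.23 with ultrasound. Because the ratio was chosen that way, its exact two-sided permutation p of 0.1, the smallest possible, adds no support.

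**Figure D2:**
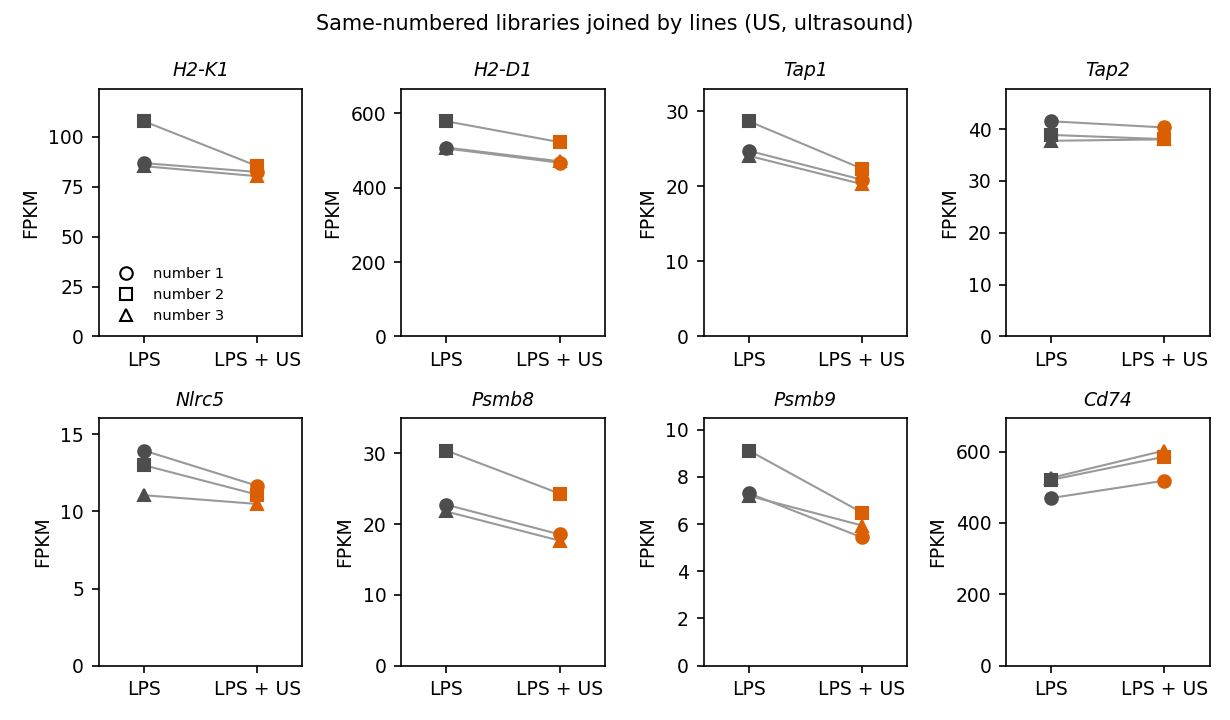
FPKM of 6 of the tested genes and of the immunoproteasome genes Psmb8 and Psmb9, 1 panel per gene on a linear axis from 0, with lines joining libraries of the same number in the LPS and the LPS plus ultrasound (US) groups. The lines of H2-K1, H2-D1, Tap1 and Nlrc5 slope down in 3 of 3 pairs and those of Cd74 slope up in 3 of 3.

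Tap1 and Tap2 encode the paired subunits of the peptide transporter. Tap1 (ENSMUSG00000037321) was at 24.7, 28.7 and 24.1 FPKM with LPS and 20.9, 22.3 and 20.3 FPKM with ultrasound. Every ultrasound library lay below every LPS library, with -22.1% to -15.6% within same-numbered pairs. The means were 25.8 ± 2.49 and 21.2 ± 1.06 FPKM (SD, n = 3 each), a log2 difference of -0.27 ± 0.09 (SE; interval -0.48 to -0.06; limma, unadjusted p = 0.0176, Benjamini-Hochberg adjusted p = 0.25). The adjusted p was 0.070 with the block and the difference was -0.20 without LPS library 2. Of its exon bases 212 of 5476 overlap Psmb9 on the opposite strand, and the strand setting of the counting is not stated. Larger opposite-strand overlaps included 904 of 3628 bases for Tapbp (Gm19412), 834 of 7280 for Erap1 (Cast) and 533 of 3781 for Tap2 (Gm15821). Tapbp also shares 149 bases with Zbtb22 on the same strand. Tap2 was at 41.5, 38.9 and 37.7 FPKM with LPS and 40.3, 38.1 and 38.0 FPKM with ultrasound. These groups overlapped, with a log2 difference of -0.02 ± 0.07 (SE; interval -0.18 to 0.14; limma, Benjamini-Hochberg adjusted p = 0.91). The ratio of Tap1 to Tap2, also computed after the values were seen, was 0.596, 0.738 and 0.638 with LPS and 0.518, 0.587 and 0.534 with ultrasound.

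Tapbp encodes tapasin, which bridges the transporter and the empty heavy chain. It was at 166, 150 and 139 FPKM with LPS and 137, 151 and 143 FPKM with ultrasound. The groups overlapped, and only library 1 was lower with ultrasound. Its log2 difference was -0.07 ± 0.08 (SE; interval -0.27 to 0.13; limma, Benjamini-Hochberg adjusted p = 0.69). It was -0.01 without LPS library 1 and -0.13 without LPS library 3. Erap1, the trimming aminopeptidase, was at 18.2, 17.4 and 19.1 FPKM with LPS and 20.1, 18.1 and 19.0 FPKM with ultrasound. Those groups overlapped too, with a log2 difference of 0.06 ± 0.08 (SE; interval -0.12 to 0.24; limma, Benjamini-Hochberg adjusted p = 0.74). Leaving out 1 library at a time gave 0.02, without LPS library 2 or ultrasound library 1, to 0.09.

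The list of other loading factors holds mainly general chaperones and folding enzymes of the endoplasmic reticulum, with the class I peptide editor Tapbpl and the translocon subunit Sec61a1. Of 9 tested, 6 were higher, 3 were lower and none passed the threshold, with a median of 0.11. Pdia3, the disulfide isomerase of the loading complex, averaged 257 ± 26.9 and 291 ± 16.7 FPKM (SD, n = 3 each), and Calr and Canx, the lectin chaperones, had log2 differences of 0.11 and 0.16. P4hb was at 0.22, Hspa5 at -0.07 and Ganab at -0.15. For P4hb, ultrasound library 2 lay at 304 FPKM against 441 and 429 FPKM in the other ultrasound libraries, and the difference without it was 0.39. Without LPS library 2, Canx was at 0.08 and Ganab at -0.10. Groups that did not overlap were found for 0 of the 9, beside 23.2% of all genes.

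The peptide supply list holds proteasome subunits, activators and cytosolic peptidases. Of 13 tested, 7 were lower, 6 were higher and none passed the threshold, with a median of -0.01. Psmb9, a catalytic subunit of the immunoproteasome, was at 7.31, 9.12 and 7.20 FPKM with LPS and 5.43, 6.49 and 5.94 FPKM with ultrasound. Its groups did not overlap and its log2 difference was -0.35 ± 0.11 (SE; interval -0.61 to -0.08; limma, Benjamini-Hochberg adjusted p = 0.25). Lap3, a leucine aminopeptidase, was at 15.9, 20.5 and 15.4 FPKM with LPS and 12.3, 14.3 and 11.5 FPKM with ultrasound, with a log2 difference of -0.41 ± 0.13 (SE; limma, Benjamini-Hochberg adjusted p = 0.24). Ide, a peptidase that also cuts insulin, lay the other way without overlap, at 15.7 ± 0.534 and 19.0 ± 1.68 FPKM (SD, n = 3 each). The remaining immunoproteasome subunits, added after their values were seen, had log2 differences of -0.29 for Psmb8 and -0.23 for Psmb10, with overlapping groups. Leaving out LPS library 2 gave -0.15 for Psmb8, -0.10 for Psmb10, -0.25 for Psmb9 and -0.29 for Lap3. Psme2, Lnpep and Tpp2 had differences of -0.01, 0.00 and 0.05, and Psme3 had 0.16, or 0.06 without LPS library 2. Psme1, also added after its values were seen, had -0.23 (limma, Benjamini-Hochberg adjusted p = 0.27), or -0.17 without that library. Its groups did not overlap, as on the lower side for 13.4% of all genes.

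**Figure D3:**
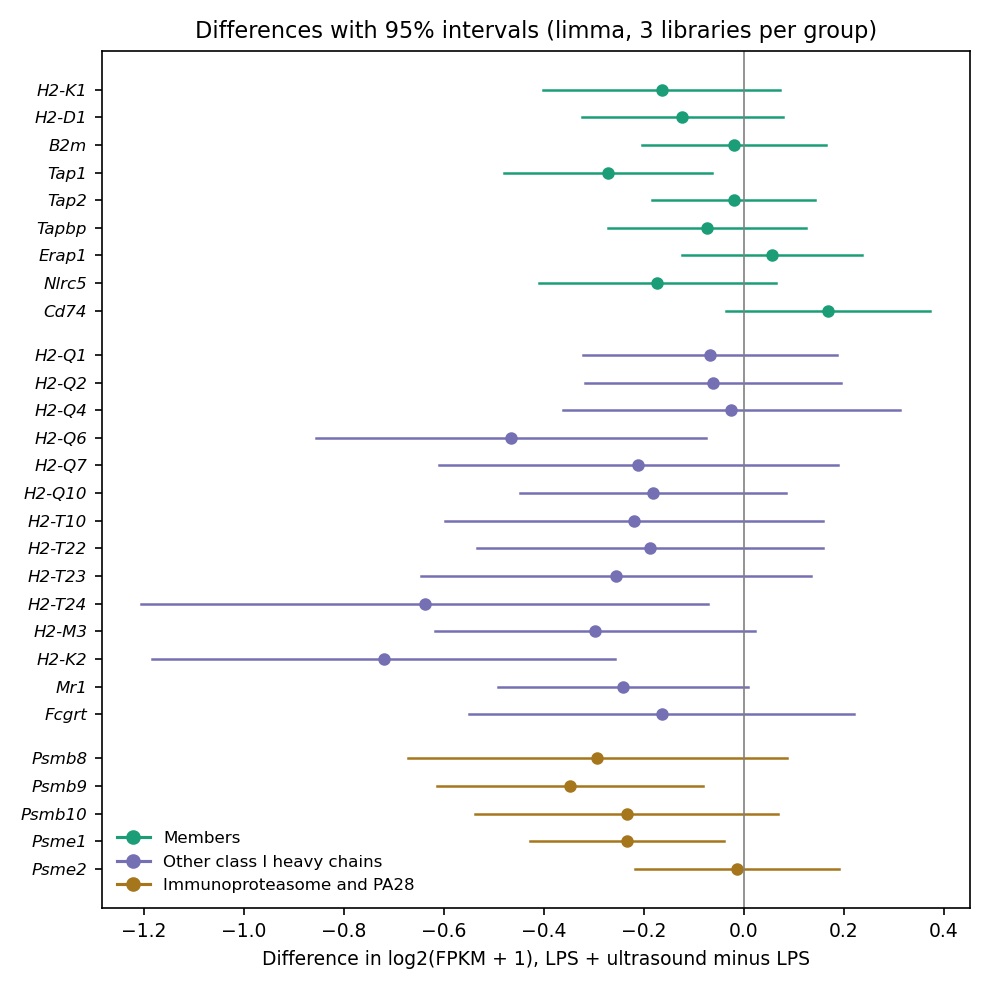
Difference in log2(FPKM + 1), ultrasound minus LPS, with 95% limma intervals for the 9 tested genes, the other heavy chain genes, and the immunoproteasome and PA28 genes. All 14 other heavy chain points lie below 0, from -0.72 for H2-K2 to -0.02 for H2-Q4, and most intervals include 0.

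Nlrc5 (ENSMUSG00000074151), the activator of class I genes, was at 13.9, 13.0 and 11.0 FPKM with LPS and 11.7, 11.1 and 10.5 FPKM with ultrasound. LPS library 3 lay within the ultrasound range, and ultrasound libraries differed from the LPS library of their number by -16.4% to -5.14%. The log2 difference was -0.17 ± 0.10 (SE; interval -0.41 to 0.06; limma, Benjamini-Hochberg adjusted p = 0.44). Leaving out 1 library at a time gave -0.26, without LPS library 3, to -0.11, without LPS library 1. The genes whose log2 levels followed Nlrc5 most closely over the 6 libraries, among 7216 candidates, were Necap1, Phf10 and Rad54l2, with Pearson r of 0.989, 0.976 and 0.972. These correlations describe 6 libraries that share 1 scaling. Ciita, the class II activator, was listed at 0 in 5 libraries and at 0.0082 FPKM in LPS library 3, and was not tested.

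NLRC5 and CIITA act with factors that bind the X and Y boxes. Of 13 such factors and regulators tested, 10 were higher, 3 were lower and none passed the threshold, with a median of 0.10. Without LPS library 2 the median was 0.03. Rfxap, a subunit of the X box factor RFX, averaged 21.4 ± 4.47 and 15.4 ± 4.74 FPKM (SD, n = 3 each), with a log2 difference of -0.47 ± 0.23 (SE; limma, Benjamini-Hochberg adjusted p = 0.37). The Y box factor genes differed in sign, with Nfyc at 0.29 and Nfyb at -0.36. Ezh2, a repressive histone methyltransferase, was at -0.25, and the coactivators Ep300 and Crebbp at 0.22 and 0.18, as was Atf1 at 0.22. Without LPS library 2, Ep300 was at 0.08, Crebbp at 0.0069, Nfyb at -0.23 and Rfxap at -0.61.

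Interferon and NF-kB signals feed the class I promoters. Of 17 such genes tested, 12 were lower, 5 were higher and none passed the threshold, with a median of -0.11. Irf1, an interferon-induced activator of class I genes, was at 8.34, 8.34 and 7.17 FPKM with LPS and 4.59, 6.73 and 5.97 FPKM with ultrasound. Its groups did not overlap and its log2 difference was -0.41 ± 0.13 (SE; limma, Benjamini-Hochberg adjusted p = 0.25). Irf8 had -0.73, Irf7 had -0.45 and Irf3 had -0.25, while Rela had 0.21, Nfkb1 had -0.09 and Jak1 had -0.08. Irf7 had -0.19, Rela 0.10 and Jak1 -0.13 when LPS library 2 was left out. Ifng was listed at 0 in every library.

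Cd74 (ENSMUSG00000024610) was abundant, ranked 51 by mean FPKM. It was at 470, 521 and 526 FPKM with LPS and 518, 585 and 603 FPKM with ultrasound. Ultrasound library 1 lay within the LPS range, and each ultrasound library lay 10.3% to 14.5% above the LPS library of its number. The means were 506 ± 31.2 and 569 ± 44.6 FPKM (SD, n = 3 each), a log2 difference of 0.17 ± 0.09 (SE; interval -0.04 to 0.37; limma, unadjusted p = 0.0925, Benjamini-Hochberg adjusted p = 0.40). The adjusted p was 0.10 with the block. The difference was 0.09 with library weights, and leaving out 1 library at a time gave 0.12, without LPS library 1, to 0.23, without ultrasound library 1. In bulk RNA a different number of expressing cells and a different amount of RNA per cell cannot be told apart. Among the genes most alike over the 6 libraries were Ccdc58 and Slc37a2, with Pearson r of 0.969 and 0.96.

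**Figure D4:**
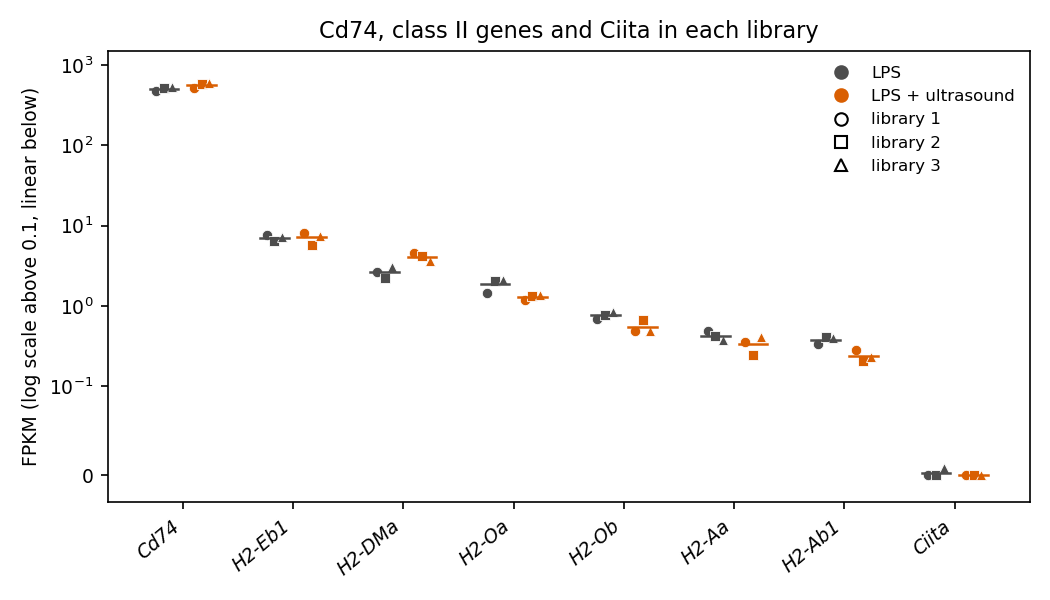
FPKM of Cd74, class II genes and Ciita in each library, on an axis that is logarithmic above 0.1 FPKM and linear below, with lines for group means. Cd74 lies between 470 and 603 FPKM, H2-Eb1 between 5.68 and 8.17 FPKM, and H2-Aa and H2-Ab1 average below 1 FPKM in each group.

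The class II genes that CD74 serves were far less abundant. Of 11 listed, 3 passed the filter, and 7 were under 1 FPKM in every library. H2-Eb1, a class II beta chain, averaged 7.05 ± 0.544 and 7.10 ± 1.28 FPKM (SD, n = 3 each). H2-DMa, a chain of the exchange factor that removes the CD74 fragment, was at 2.66, 2.25 and 3.03 FPKM with LPS and 4.49, 4.20 and 3.60 FPKM with ultrasound. The groups did not overlap, with a log2 difference of 0.48 ± 0.12 (SE; interval 0.21 to 0.76; limma, Benjamini-Hochberg adjusted p = 0.19). With library weights its adjusted p was 0.046 (limma), in a fit where 1.98% of all genes passed 0.05. H2-Oa, a chain of the inhibitor of that factor, lay the other way at 1.85 ± 0.366 and 1.29 ± 0.0934 FPKM (SD, n = 3 each). The beta chain genes that pair with H2-DMa were lower still, H2-DMb1 at no more than 0.0625 FPKM and H2-DMb2 at no more than 0.151 FPKM.

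A further list holds genes of CD74 processing, partners of CD74, and related class II genes such as Ifi30 and March8. Of 10 tested, 6 were lower, 4 were higher and none passed the threshold, with a median of -0.03. Mif, the cytokine ligand of CD74, was at 410, 506 and 456 FPKM with LPS and 358, 360 and 353 FPKM with ultrasound. The ultrasound libraries lay close together and below every LPS library, with a log2 difference of -0.35 ± 0.09 (SE; interval -0.56 to -0.15; limma, unadjusted p = 0.00488, Benjamini-Hochberg adjusted p = 0.20). It was -0.28 without LPS library 2. Mif shares 24.8% of its 100-base stretches with other genes, so its level is uncertain. Cd44, the signalling partner of CD74, had -0.16, the proteases Ctsb and Ctss had -0.00 and -0.07, and the thiol reductase Ifi30 had 0.23. Leaving out LPS library 2 gave -0.10 for Cd44, -0.03 for Ctss and 0.12 for Ifi30.

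Among promoters holding the spaced X2 and Y pair, 6 belonged to the genes or lists above, namely B2m, H2-K1, H2-D1, H2-M3, H2-Q7 and H2-Aa. The 5 that were tested were all lower, with a median of -0.16. Without LPS library 2, 4 of the 5 were lower and the median was -0.06. These 5 come from genes already described above, most of them lower, so the count adds no separate support. The other heavy chain genes that were tested were all lower, whether or not the pair was found for them. Among members whose windows held no pair, Tap1 had -0.27, Tapbp -0.07 and Erap1 0.06. The 36 other tested genes with the pair had 21 lower and a median of -0.04, and 4318 of 7951 tested genes with any promoter window were lower, with a median of -0.02. Within the class I genes, H2-K1, H2-D1 and Tap1 followed each other over the 6 libraries, with Pearson r from 0.912 to 0.922. Other class I pairs ranged from negative to positive. For Erap1, r was -0.903 with B2m and -0.878 with H2-D1. For Tap2, r was 0.0228 with H2-K1 and 0.787 with Nlrc5. B2m had r of 0.785 with H2-D1 and 0.0657 with Nlrc5. Nlrc5 had r of 0.738 with Tapbp, 0.693 with Tap1, 0.569 with H2-K1, 0.466 with H2-D1 and -0.47 with Erap1. Nlrc5 and Cd74 had r of -0.86. These values describe 6 libraries that share a scaling and include the library that stood apart.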

How the data were processed

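The deposited table gives FPKM per gene for 6 libraries. The authors made these FPKM values before deposit, with an aligner, quantifier and annotation not given in the sources used here. All 55335 identifiers are mouse, whereas the submitters' processing notes name the rat build mRatBN7.2 and the labels' extraction text names rat muscle. Read depth is unknown, so no counting interval is given. Columns were matched to samples by initial and number. Symbols were found for 55154 identifiers.

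The 11270 genes averaging 1 FPKM or more entered a fit by limma 3.58.1 (R 4.3.3) of log2(FPKM + 1) values, using trend and robust moderation, a two-sided test, Benjamini-Hochberg adjustment over all genes tested and a threshold of 0.05. Fold changes on this scale understate those of low genes. The fit was tested on simulated data. Deviations from group means correlated at 0.18, 0.44 and 0.41 for same-numbered libraries and at -0.4 to 0.06 for others. Centring within groups ties these correlations together, so they are not independent. The study states no pairing. Numbers were taken to pair libraries from these same data, and a fit with the number as a block was only an alternative. Other alternatives were pseudocounts, filters, scalings, moderation, library weights and libraries left out. The members and lists were chosen with earlier results of these data known. Named genes were all members, up to 4 most abundant and up to 3 of smallest p from each list, and the 3 genes most correlated with Nlrc5 and with Cd74. For Cd74, 1 of these 3 is not reported here. Shared 100-base stretches and exon overlaps came from GENCODE M21 annotation.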

Additional observations from a re-analysis of the deposited data

How the results depend on the processing

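The count of genes past an adjusted p of 0.05 was 2 in the limma fit, 1 with a filter at 5 FPKM, 5 with equal FPKM sums, 223 with library weights, 13 with the replicate block, 6 without both libraries numbered 2, 8 at a threshold of 0.1, and 2 to 8 leaving out 1 library at a time. The block changed no other call. Among the 9 tested members the count was 0 under each alternative, and of 153 alternative differences 149 kept their sign and side of the threshold. Library weights turned Tap2 to 0.0071, and leaving out 1 library gave -0.065 to 0.0285 for B2m and -0.0494 to 0.0175 for Tap2. In the other lists library weights called 2 of 79 tested genes, beside 1.98% of all genes, and the other settings called 0. For the summed class I heavy chain FPKM the difference of -98.8 was -110.8 with equal sums, -88.07 with median-ratio scaling, -135.8 with quantile normalization, -76.48 without both libraries numbered 2, -54.4 for H2-K1 and H2-D1 alone, -133.7 to -41.61 leaving out 1 library, and -98.77 with the replicate block (exact sign-flip p = 0.25, the smallest possible). Signs that turned in the order median-ratio scaling, quantile normalization, library weights and without both libraries numbered 2 were 0.0053, 0.0018, 0.0255 and 0.0284 for Psme2, 0.0159, 0.0381, 0.1239 and 0.0778 for H2-Eb1, and 0.0161, 0.0158, 0.0369 and 0.0609 for the Ctsb log2 fold change. The Lnpep log2 fold change was -0.0170 with equal sums, -0.0012 with quantile normalization and -0.0075 with weights, the Tpp2 log2 fold change was -0.0006 with weights and -0.0136 without both libraries numbered 2, and Hspa5 was 0.0237 without both. Leaving out 1 library gave -0.1398 to 0.0347 for Hspa5, -0.069 to 0.0618 for Psme2, -0.0315 to 0.0411 for Lnpep, -0.0022 to 0.0709 for Tpp2, -0.1407 to 0.0919 for H2-Q4, -0.097 to 0.1317 for H2-Eb1 and -0.0498 to 0.043 for Ctsb. The cause of these changes was not tested. The number of libraries, 3 per group, limits the precision, and read depth is unknown.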
